A study of Mus musculus with 4 samples.

Results

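The 10 genes described here encode parts of the epithelial inflammasome and pyroptosis machinery: Casp1, Casp4, Nlrp6, Nlrc4, Naip1, Naip5, Gsdmd, Gsdmc2, Il18 and Pycard. They were picked by name out of 55416 gene identifiers in the tables, and all 10 were found by their Ensembl identifier. RNA came from small intestinal organoids of C57BL/6 mice, which are closed epithelial structures grown in a basement-membrane gel. The adult group (2 libraries) was started from intestinal epithelial cells of mice aged 4 to 8 weeks, and the fetal group (2 libraries) from those of E15.5 embryos (counted in days of gestation). Both groups were kept in IntestiCult, a commercial organoid medium, and the labels give no genetic change or treatment for either. The labels do not say how many animals or cultures stand behind the 2 replicates of a group, so the spread between them may be technical. The genes were chosen with this same fetal against adult contrast known, so their differences are given as a description, with standard errors.

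An inflammasome is a protein complex that assembles when a cytosolic sensor meets a microbial product or a sign of damage. NAIP proteins bind bacterial flagellin or parts of the type III secretion apparatus and then engage NLRC4, while NLRP6 is a sensor known from intestinal epithelium. Sensors recruit caspase-1, directly or through the adaptor ASC (encoded by Pycard), whereas mouse caspase-11 (encoded by Casp4) binds bacterial lipopolysaccharide itself. Active caspase-1 matures the cytokine IL-18, and both caspases cut gasdermin D, whose freed part forms pores in the plasma membrane. In the intestine this machinery is known for the expulsion of infected enterocytes and for restricting enteric bacteria.

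The libraries held 12449681 and 10862147 estimated counts in adult and 13061585 and 12184259 in fetal organoids. Epithelial markers were abundant in all 4 libraries (summed TPM of 7 markers 3240 and 3220 in adult and 7150 and 6980 in fetal, led by the keratins Krt19 and Krt8). The leukocyte marker Ptprc had 1 count in 1 adult library and 0 in the others. Other immune and mesenchymal markers were seen. Cd68 had 19 and 23 counts in adult and 102 and 94 in fetal libraries, and Col3a1 had 0 in adult and 365 and 347 in fetal ones. Values below are CPM (counts scaled to library size with TMM factors) unless TPM, which also corrects for gene length, is named. With these factors the median log2 fold change (fetal over adult) of all 14271 tested genes was 0.01. It was 0.25 with plain library totals, so that changes on that scale sit higher by about that amount. On log2(TPM + 1) the median was 0.26 over the 20961 genes of another filter. Single genes moved either way on that scale, Il33 from 5.80 to 3.66 and Naip2 from -0.54 to -0.14. Of all genes, 4833 were called higher and 4662 lower, against 6971 and 2976 with library totals. Mitochondrial transcripts took 17.6% and 17.5% of counts in adult and 6.98% and 7.82% in fetal libraries.

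Transcripts of the sensors and the adaptor were found in both groups, most of them at higher levels in adult organoids. Adult organoids carried caspase-1 transcripts with little gasdermin D, and fetal organoids carried gasdermin D with nearly no caspase-1. Casp1, Nlrp6, Pycard, Naip1 and Naip5 were lower in fetal organoids, Gsdmd was higher, and Casp4, Nlrc4 and Il18 were not called. Gsdmc2 had 0 counts in every library and did not pass the filter on low counts, so 9 of the 10 genes were tested. By edgeR's quasi-likelihood test with a Benjamini-Hochberg adjusted p under 0.05, 1 of these 9 was called higher and 5 lower, where 33.9% of all tested genes were called higher and 32.7% lower (66.5% in either direction). The CPM of the groups did not overlap for 7 of the 9, against 82.7% of all tested genes. Nothing is read from these counts, because the contrast had a part in choosing the genes. In such bulk samples, fewer cells of a type and less RNA per cell cannot be told apart.

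**Figure D1:**
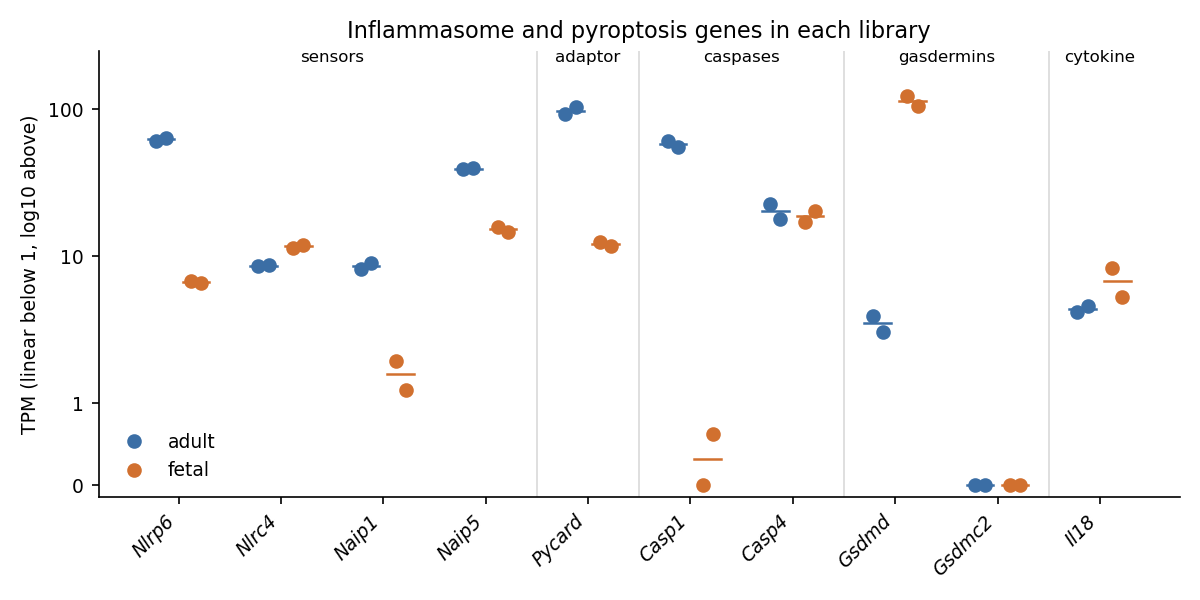
TPM of the 10 genes in each adult (blue) and fetal (orange) library, grouped by role; points are libraries, short lines are group means, and the axis is linear below 1 and log10 above. Gsdmd stands highest in fetal organoids (123 and 105 TPM), whereas Casp1 is listed at 0 and 0.63 TPM there against 60.6 and 55.0 in adult.

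Among the sensors, Nlrp6 had 2357 and 2146 counts in adult and 241 and 220 in fetal libraries, or 206 and 215 CPM against 16.8 and 16.7. Both fetal libraries lay far below both adult ones, a fall of 12.6-fold (log2 fold change -3.65 ± 0.06 SE). Nlrc4, the partner that NAIPs activate, stood at 28.1 and 29.4 CPM in adult and 30.1 and 30.3 in fetal organoids. Its groups did not overlap, but the difference was small (log2 fold change 0.07 ± 0.07 SE). It was called only with library totals and by limma on TPM. With library totals its log2 fold change was 0.32 (edgeR, Benjamini-Hochberg adjusted p = 0.00159), and on log2(TPM + 1) it was 0.40 (limma, adjusted p = 0.0288).

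Naip1, known as a receptor for the needle protein of type III secretion systems, had 32.2 and 36.2 CPM in adult and 4.53 and 4.18 in fetal libraries. The fall was 7.85-fold (log2 fold change -2.96 ± 0.12 SE). Naip5, a flagellin receptor, had 166 and 169 CPM in adult and 51.1 and 48.2 in fetal libraries, a fall of 3.38-fold (log2 fold change -1.76 ± 0.05 SE). For both genes each fetal library was below each adult one.

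Among protein-coding genes, 4 Naip copies lie side by side in the genome, in the order Naip2, Naip5, Naip6 and Naip1, and share stretches of sequence. In GENCODE M21 transcripts, 32.5% of the 50-base windows of Naip1 and 36.8% of those of Naip5 also occur in a transcript of another gene, led by Naip3 and Naip6. The authors' estimated counts for these copies are not whole numbers (for example 368.26 for Naip1 in adult replicate 1), so reads were divided between genes and single values are uncertain. Naip3 stood at 8.46 and 7.68 TPM in adult and 2.04 and 1.86 in fetal libraries. It is left out of the sum below, so reads divided between it and Naip1 remain uncertain there. Over the 4 copies together, TPM summed to 179 and 175 in adult and 78.2 and 76.1 in fetal libraries. Naip6, also a flagellin receptor, made up 58.2% and 56.9% of that sum in adult and 45.5% and 47.1% in fetal organoids. Naip2, a receptor for the inner rod protein of the secretion system, made up 15.3% and 15.4% in adult and 31.7% and 32.1% in fetal organoids. In TPM, Naip2 itself stood at 27.5 and 27.0 against 24.8 and 24.4, so its larger share went with the smaller sum. Naip1 took 4.55% and 5.11% of the sum in adult and 2.50% and 1.62% in fetal libraries.

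**Figure D2:**
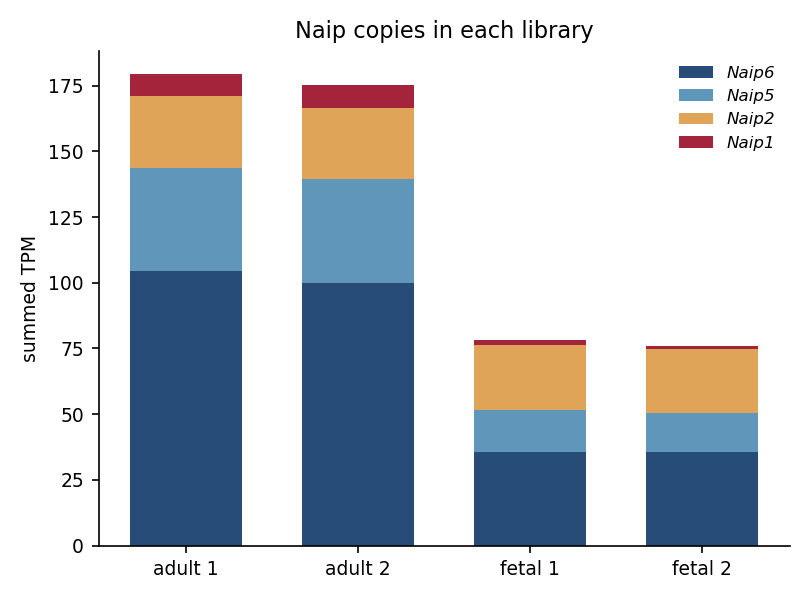
Stacked bars of the TPM of Naip6, Naip5, Naip2 and Naip1 in each library. The sum is 179 and 175 in adult and 78.2 and 76.1 in fetal libraries, and the Naip2 segment keeps nearly the same height (24.4 to 27.5) while the other segments shrink.

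Pycard, the adaptor that links sensors to caspase-1, had 69.4 and 71.9 CPM in adult and 7.60 and 6.99 in fetal libraries. Its groups were far apart, with a fall of 9.68-fold (log2 fold change -3.27 ± 0.08 SE). Pycard overlaps Gm45205 on the opposite strand, and its estimated counts are not whole numbers (793.2 in adult replicate 1). Some reads were thus divided between genes, so its values are uncertain. With which gene they were divided was not tested. Read in the same direction, no 50-base window of the Pycard transcript occurs in a transcript of another gene. Per gene length, Pycard exceeded Nlrp6 in each library, with a TPM ratio of 1.50 and 1.64 in adult and 1.84 and 1.81 in fetal organoids. The TPM ratio of Pycard to Nlrc4 was 10.8 and 11.9 in adult and 1.10 and 0.984 in fetal organoids.

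Casp1 had 866 and 686 counts in adult and 0 and 5 counts in fetal libraries. In CPM it stood at 75.8 and 68.8 against 0 and 0.38, a ratio of means of 380 (log2 fold change -8.56 ± 0.23 SE). The size of this fall rests on the few fetal counts, whose counting error is larger than that SE. Without fetal replicate 2 the remaining fetal library had 0 counts and the fall was at least 346-fold against a floor of 3 counts per library, and without fetal replicate 1 it was 190-fold. No 50-base window of the Casp1 transcript occurs in a transcript of another gene.

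Casp4, the next protein-coding gene after Casp1 on the same strand, showed no such fall. It had 20.8 and 16.2 CPM in adult and 13.7 and 16.4 CPM in fetal libraries, and the groups overlapped (log2 fold change -0.31 ± 0.14 SE, not called). Its call depended on single libraries: it was called lower without adult replicate 2 (log2 fold change -0.47; edgeR, Benjamini-Hochberg adjusted p = 0.00584) and without fetal replicate 2 (-0.45, adjusted p = 0.0104). It was also called with no filter on low counts (-0.31, adjusted p = 0.0187). Casp12, the third caspase gene of the row, had 0 counts in both adult libraries and 6 and 4 in the fetal ones. The TPM ratio of Casp1 to Casp4 was 2.69 and 3.07 in adult and 0 and 0.0311 in fetal organoids.

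The sequences before the starts of 4 of these genes are shown because 3 of the genes fell together (Casp1, Nlrp6 and Pycard) while Casp4, the neighbour of Casp1, did not. Each is the 250 bases before the transcription start in RefSeq on GRCm38.p6, written 5′ to 3′ on the gene's strand, with CpG dinucleotides in capitals. The windows are chr9:5298267-5298516 (plus strand) for Casp1, chr9:5308599-5308848 (plus strand, the first of its 2 listed starts) for Casp4, chr7:140920652-140920901 (plus strand) for Nlrp6 and chr7:127993868-127994117 (minus strand) for Pycard.
Casp1: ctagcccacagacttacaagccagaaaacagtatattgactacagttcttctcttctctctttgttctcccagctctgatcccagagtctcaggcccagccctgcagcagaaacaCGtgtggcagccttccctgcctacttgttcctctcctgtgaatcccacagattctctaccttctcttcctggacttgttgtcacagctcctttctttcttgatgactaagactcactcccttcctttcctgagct
Casp4: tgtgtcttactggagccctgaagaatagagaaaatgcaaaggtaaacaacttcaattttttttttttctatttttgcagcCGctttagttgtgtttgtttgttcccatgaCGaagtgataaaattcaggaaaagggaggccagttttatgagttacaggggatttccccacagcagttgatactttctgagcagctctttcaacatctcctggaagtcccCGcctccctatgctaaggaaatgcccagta
Nlrp6: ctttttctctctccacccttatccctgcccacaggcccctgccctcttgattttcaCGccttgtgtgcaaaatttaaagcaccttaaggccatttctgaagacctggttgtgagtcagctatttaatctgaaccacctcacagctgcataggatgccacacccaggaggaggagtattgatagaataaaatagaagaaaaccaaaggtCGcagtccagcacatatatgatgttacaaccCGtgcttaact
Pycard: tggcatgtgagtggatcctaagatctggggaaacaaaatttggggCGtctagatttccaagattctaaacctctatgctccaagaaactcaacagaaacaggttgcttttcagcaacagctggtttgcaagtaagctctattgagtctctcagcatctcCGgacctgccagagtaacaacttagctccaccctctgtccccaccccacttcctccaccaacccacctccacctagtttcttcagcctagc

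These windows are poor in CpG. Casp1 has 1, Pycard has 2, and Casp4 and Nlrp6 have 3 each, and the windows of all 8 of the 10 genes that matched the table hold 1 to 3. Over all 32851 windows of that length the median is 6, and 37.8% hold at most 3. Among the 8 are genes that fell and genes that did not, and Casp1 and Il18 have 1 CpG each. For 7 motifs searched on both strands, a match to the AP-1 letters TGANTCA (found before 6.75% of all starts) occurs 140 bases before the Nlrp6 start. The TATA box letters TATAAA (12.4% of all starts) match on the opposite strand before Il18, Naip5 and Naip1. For Il18 and Naip5, a stretch of bases after the RefSeq start was not found in any GENCODE M21 transcript of the gene. The starts, and so the windows, of Il18 and Naip5 are less certain. The interferon-response core, GAAA and GAAA with 2 bases between (2.98%), the STAT letters TTCNNNGAA (7.02%), the TEAD letters GGAATG (12.6%), the CDX letters TTTATGG (2.43%) and the HNF4 letters CAAAGTCCA (0.384%) match in none of the windows of these 8 genes.

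Gsdmd went the other way from Casp1. It had 48 and 44 counts in adult and 1436 and 1243 in fetal libraries, or 4.20 and 4.41 CPM against 100.1 and 94.5, a rise of 22.6-fold (log2 fold change 4.50 ± 0.09 SE). Per gene length, Gsdmd stood far below Casp1 in adult organoids, with a TPM ratio of Gsdmd to Casp1 of 0.0646 and 0.0560. In fetal replicate 2 the ratio was 166, and in fetal replicate 1 Casp1 is listed at 0. Against Casp4, the ratio was 0.174 and 0.172 in adult and 7.18 and 5.16 in fetal organoids. Against Casp8, a caspase of death-receptor signalling that can also cut gasdermin D, it was 0.0831 and 0.0669 in adult and 1.14 and 0.998 in fetal organoids. No 50-base window of Gsdmd occurs in another gene's transcript.

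**Figure D3:**
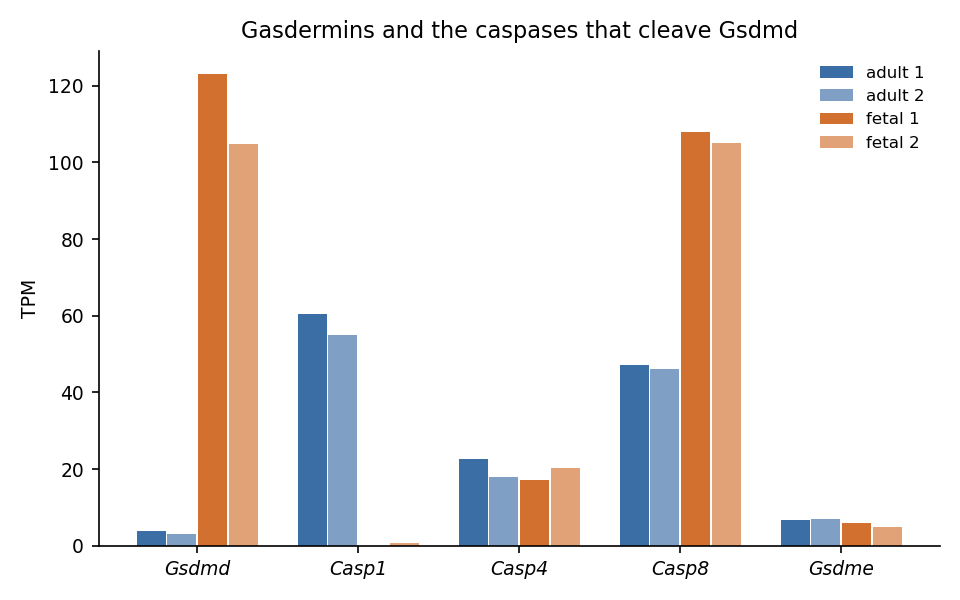
TPM of gasdermin D, of 3 caspases that can cut it and of gasdermin E in each adult (blue) and fetal (orange) library, lighter bars being replicate 2. Gsdmd is at 3.91 and 3.08 in adult and 123 and 105 in fetal libraries, Casp4 stays between 17.1 and 22.5, and Casp1 has no visible bar in fetal organoids.

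Gsdmc2 belongs to a cluster of gasdermin C copies that lie next to each other among protein-coding genes. It had 0 counts in all 4 libraries, which allows up to 3 counts in each, or 0.209 to 0.301 CPM by library (counting error only). Its neighbour Gsdmc and the copy Gsdmc4 also had 0 counts everywhere, and Gsdmc3 had 2 counts, both in fetal replicate 2. Of the Gsdmc2 windows of 50 bases, 48.5% occur in another gene, mostly Gsdmc3, so single values of the copies would be uncertain, but reads of any copy were nearly absent. No difference between fetal and adult organoids was detectable for this family at this depth.

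Il18, the cytokine that caspase-1 matures, was low in all libraries, with 25 and 26 counts in adult and 51 and 31 in fetal ones. In CPM it had 2.19 and 2.61 against 3.56 and 2.36, so the groups overlapped (log2 fold change 0.32 ± 0.31 SE, not called). The value depended on fetal replicate 1, without which the log2 fold change was -0.018. Il18 overlaps Bco2 and Tex12 on the opposite strand. No source used here gives whether the counting used the strand, so the counts of Il18 are uncertain. Its estimated counts are whole numbers in each library. Pycard and Naip1 also overlap a gene on the opposite strand, and Nlrc4 overlaps a pseudogene on the same strand.

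Ordered by mean TPM (± SD, n = 2), the adult libraries gave Pycard (97.9 ± 8.16), Nlrp6 (62.3 ± 1.40), Casp1 (57.8 ± 3.93), Naip5 (39.4 ± 0.226), Casp4 (20.2 ± 3.25), Nlrc4 (8.63 ± 0.127), Naip1 (8.56 ± 0.573), Il18 (4.38 ± 0.318) and Gsdmd (3.50 ± 0.587). In that order the library ranges of neighbours were separate except for Nlrc4 and Naip1. The fetal order was Gsdmd (113.8 ± 12.9), Casp4 (18.7 ± 2.23), Naip5 (15.3 ± 0.912), Pycard (12.1 ± 0.467), Nlrc4 (11.7 ± 0.467), Il18 (6.81 ± 2.17), Nlrp6 (6.65 ± 0.156), Naip1 (1.59 ± 0.509) and Casp1 (0.315 ± 0.445). Here the ranges of Pycard and Nlrc4, and of Il18 and Nlrp6, met. Among the 9 detected genes Gsdmd was thus the lowest in adult and the highest in fetal organoids, and Casp1 the third in adult and the lowest in fetal ones.

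**Figure D4:**
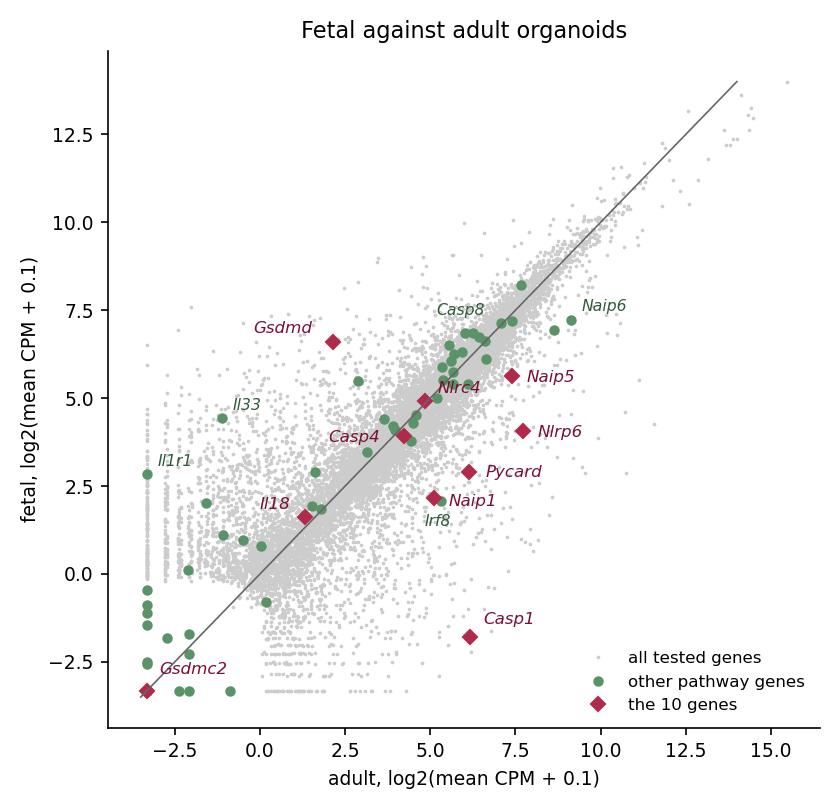
Mean CPM of fetal against adult organoids on a log2(CPM + 0.1) scale for all tested genes (grey), 60 other inflammasome and pyroptosis genes (green) and the 10 genes (red); the line marks equal values. Casp1 lies far under the line (72.3 CPM in adult, 0.19 in fetal), Gsdmd well above it (4.30 and 97.3), and Casp4, Nlrc4 and Il18 on or near it.

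A wider list of 60 other genes of the pathway was examined by role. Of these, 40 were tested, 19 rose, 9 fell and 12 were not called, where 33.9% of all tested genes rose and 32.7% fell. Their median log2 fold change was 0.33, against 0.01 for all tested genes. Library totals gave 27 higher and 6 lower in place of these numbers, each out of the same 40. By limma on log2(TPM + 1), with another filter, 46 were tested, of which 24 were higher and 4 lower. Of the 20 genes that did not pass the filter, 8 had 0 counts in every library, among them the sensors Nlrp1a, Nlrp1b, Nlrp12 and Mefv. The adult libraries had 1 count each of Nlrp3 and the fetal libraries 0.

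Of 10 further sensors 3 were tested and 2 fell, both of them Naip copies, where 32.7% of all tested genes fell. Naip6 had 574 and 553 CPM in adult and 148 and 153 in fetal libraries (log2 fold change -1.91 ± 0.04 SE). Naip2 had 101 and 98.9 CPM against 67.8 and 69.5 (log2 fold change -0.54 ± 0.05 SE). On log2(TPM + 1) the Naip2 difference was -0.14 and was not called (limma, Benjamini-Hochberg adjusted p = 0.128). Aim2, a sensor of cytosolic DNA and the other sensor tested, was not called. Among caspases of the wider list, Casp8 rose from 64.8 and 65.4 CPM to 114.4 and 114.6 (log2 fold change 0.81 ± 0.05 SE).

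Of the other gasdermins and the rupture protein Ninj1, 4 of 9 were tested, 1 rose and 1 fell. Of all tested genes, 33.9% rose and 32.7% fell. Gsdme, another pore-forming gasdermin, had 20.8 and 22.2 CPM in adult and 14.7 and 12.5 in fetal libraries, opposite in direction to Gsdmd (log2 fold change -0.65 ± 0.11 SE). On log2(TPM + 1) its difference was -0.28 and was not called (limma, Benjamini-Hochberg adjusted p = 0.175). Gsdma, the gene that rose, had 3 and 0 counts in adult and 11 and 16 in fetal libraries (ratio 7.0, 95% counting interval 2.15 to 36.1) and was named after its values were seen.

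Cytokine and receptor genes of the interleukin-1 family rose in 6 of 9 tested cases and none fell, where 33.9% of all tested genes rose and 32.7% fell, while Il18 itself was not called. Il33, an alarmin stored in the nucleus, had 6 and 2 counts in adult and 291 and 295 in fetal libraries (log2 fold change 5.80 ± 0.26 SE). Il1rn, the receptor antagonist, rose from 6.47 and 8.02 CPM to 44.1 and 45.6 (log2 fold change 2.64 ± 0.10 SE). Il1r1, the signalling receptor for interleukin-1, had 0 counts in adult and 109 and 85 in fetal libraries, and was at least 25.0-fold higher. The mesenchymal markers Col3a1 (0 counts in adult, 365 and 347 in fetal) and Col1a1 (4 in both adult, 248 and 232 in fetal) were higher in the same libraries, and their part in these rises was not tested.

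Regulators divided into 4 higher and 5 lower of 12 tested, where 33.9% of all tested genes were higher and 32.7% lower. Irf8, a transcription factor known to drive Naip genes, fell from 39.2 and 40.6 CPM to 4.39 and 3.88 (log2 fold change -3.26 ± 0.11 SE). Irf2, known to drive Gsdmd, fell from 69.6 and 67.7 CPM to 41.6 and 43.1 (log2 fold change -0.70 ± 0.06 SE), while Gsdmd was higher. Txnip, a thioredoxin-binding protein linked to NLRP3, fell from 399.5 and 400.5 CPM to 124 and 120.1. Gbp7, an interferon-induced GTPase, rose from 3 and 2 counts to 51 and 57 (log2 fold change 4.02 ± 0.45 SE). Nek7 and Sugt1, partners of NLR proteins, rose 1.46-fold and 1.36-fold.

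Genes of necroptosis, another lytic form of cell death, rose in 3 of 5 tested cases and none fell, against 33.9% and 32.7% of all tested genes, so that the share called was near that of all genes (66.5%). Mlkl, which forms its pore, rose from 2.54 and 3.41 CPM to 7.32 and 7.45 (log2 fold change 1.32 ± 0.21 SE), and the kinase Ripk3 from 44.3 and 48.5 to 89.3 and 93.6 (0.98 ± 0.06 SE). Cflar, an inhibitor of caspase-8, rose from 52.4 and 50.4 to 74.5 and 78.6 CPM. Of 6 genes of membrane repair, 4 rose and 1 fell, against the same 33.9% and 32.7% of all tested genes. Chmp4b had a log2 fold change of 0.60 ± 0.05 SE, Pdcd6ip of 0.54 ± 0.03 and Chmp2a of 0.40 ± 0.07. Vps4a fell by 0.20 on the log2 scale. That call was lost by DESeq2 and with no filter on low counts, and also when adult replicate 1, fetal replicate 1 or fetal replicate 2 was left out (adjusted p = 0.0886, 0.0619 and 0.0579 by edgeR with Benjamini-Hochberg adjustment), and its sign turned with library totals (0.05) and on log2(TPM + 1) (0.14).

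**Figure D5:**
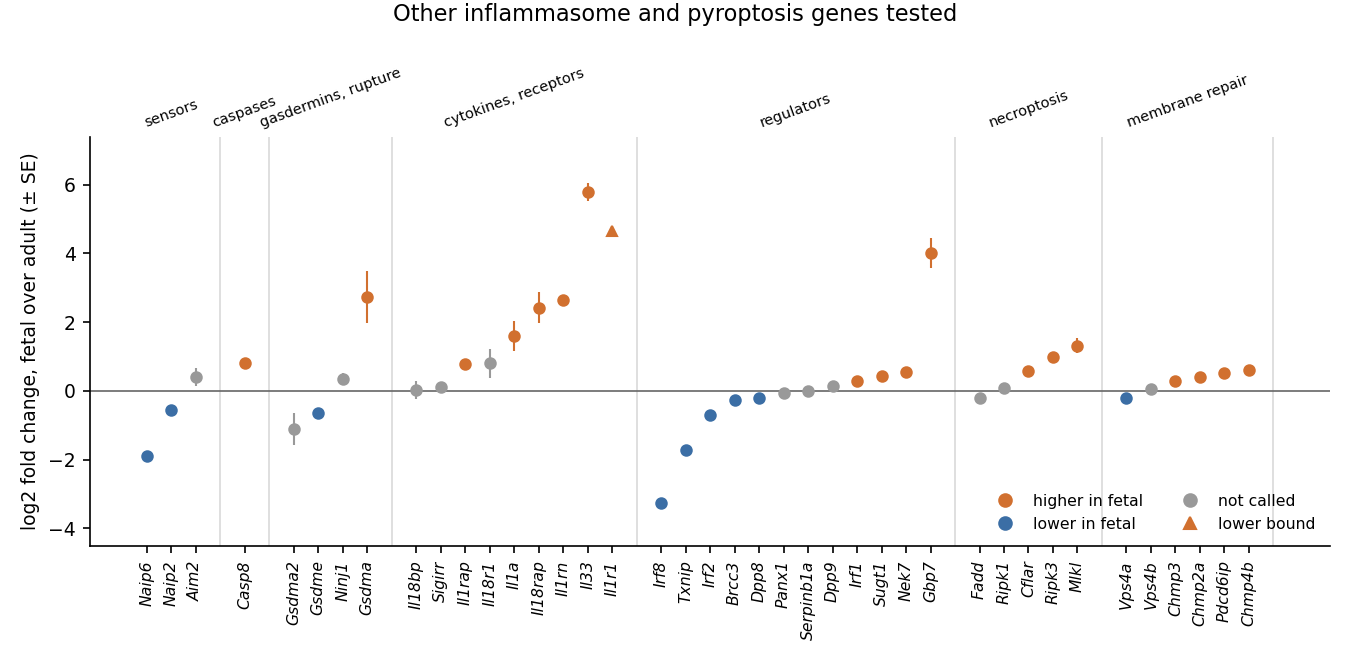
Log2 fold changes (fetal over adult, ± SE) of the 40 other pathway genes tested, by role, coloured by call; the triangle is the lower bound for Il1r1, which had 0 counts in adult. Cytokine and receptor genes lie at or above 0, with Il33 at 5.80, whereas Irf8 at -3.26 is the lowest point.

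Markers of cell types also differed between the groups, where 33.9% of all tested genes were called higher and 32.7% lower. All 8 markers of enterocytes, the absorptive cells, fell, and their summed TPM was 1070 in both adult and 63.3 and 62.5 in the fetal libraries. Of 7 goblet cell markers 5 fell and 1 rose, with sums of 1090 and 1110 against 396 and 400 TPM. Of 12 immune markers, 3 were tested, 2 rose and 1 fell, and their sum was 3.44 and 5.25 TPM in adult and 18.1 and 15.6 in fetal libraries. Cd68 and Lyz2 led it, while Cd3e was at 0 in every library, Spi1 had 1 count and Adgre1 had 2 counts in all. The immune marker that fell was Itgam, with 28 and 15 counts in adult and 3 and 1 in fetal libraries. Of 9 mesenchymal markers, 6 were tested and 5 rose, led by Col3a1 and Col1a1, with sums of 0.41 and 0.79 TPM in adult and 23.0 and 28.4 in fetal libraries. Of 5 tuft cell markers, 3 were tested and 2 fell. Trpm5 had 17 and 10 counts in adult and 2 and 1 in fetal libraries, and Pou2f3 had 15 in both adult and 8 and 7 in the fetal ones. The Pou2f3 call was lost by the DESeq2 Wald test (Benjamini-Hochberg adjusted p = 0.134). By limma it was lost on log2(TPM + 1) (adjusted p = 0.126) and on log2(TPM + 0.1) (adjusted p = 0.144). The sum of the 5 was 2.51 and 2.19 against 1.94 and 2.34 TPM. Of the 7 epithelial markers, 4 were called higher (Krt8, Krt18, Krt19 and Cdh1) and 3 lower (Epcam, Cldn7 and Vil1) with TMM factors, and none of the 5 endothelial markers passed the filter. The part of any of these cell types in the differences of the 10 genes and of the wider list was not tested.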

How the data were processed

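Poly-A selected RNA of 2 adult and 2 fetal organoid samples was sequenced. For each Ensembl gene the authors deposited expected counts as RSEM estimates them, not normalized, per the file headers. The deposited TPM values correct for gene length and sum to the same total in each library, per the file headers. Tools named in the submitters' processing notes, with no role or order, are STAR 2.7.3a, RSEM 1.3.3, Trim Galore and FastQC, and the builds are mm10 and GRCm39. The annotation release and the use of strand are not given in the sources used here. Of 55416 identifiers, 52083 matched a symbol in GENCODE M21.

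After rounding to whole counts, edgeR 4.0.16 was run in R 4.3.3 (TMM, filterByExpr, quasi-likelihood test of fetal against adult) over the 14271 genes that passed the filter, with Benjamini-Hochberg adjustment and a threshold of 0.05. TMM factors were 0.918 and 0.919 in adult and 1.10 and 1.08 in fetal libraries. Errors are SE of log2 fold changes or SD over 2 libraries. The SE is the absolute log2 fold change divided by the square root of the test's F statistic. It can be smaller than counting error alone, most so where a group has few counts (Casp1, Il33 and Gbp7). Folds against groups at 0 used a floor of 3 counts per library, and groups with 1 to 3 counts have a 95% Clopper-Pearson interval on the summed counts. Floor and interval take in counting error alone, because PCR copies of a molecule cannot be recognised without molecular identifiers. The steps were also run on simulated data with few changed genes and a spread taken from these libraries. That run cannot test the scaling where 66.5% of tested genes were called, nor variation between cultures.

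Counts of the 2 replicates of a group differed by more than sampling noise (chi-square per degree of freedom 3.30 in adult and 2.81 in fetal), so neither pair was treated as 1 library deposited again; this does not show that they are separate cultures. The members and lists were chosen with earlier results of these data known. Named genes are the 10 members, the Naip and Gsdmc copies, up to 3 called genes per direction and role with a mean of at least 1 CPM in either group, and the 2 most abundant of each marker list. Other genes were named after their values were seen, and 2 genes of the wider pathway list are not reported here and left out of its counts. Promoter windows came from RefSeq (GRCm38.p6) by symbol, with 8 of 10 genes matched. Alternatives were other scalings, DESeq2 1.42.0, other filters, limma 3.58.1 on log2(TPM + 1) and log2(TPM + 0.1), a replicate block and single libraries left out.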

Additional observations from a re-analysis of the deposited data

How the results depend on the processing

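Of the named genes, 41 were recomputed under 14 alternatives, which left 544 of 574 values with the same direction and side of the threshold, 17 weaker, 8 stronger and 5 with the other sign. Library totals, limma on log2(TPM + 1), on log2(TPM + 0.1) and on log2(TPM + 1) with no filter gave fewer genes lower in fetal. Of all genes, 2976, 1811, 1854 and 1728 were lower in place of 4662, and of other pathway genes 6, 4, 4 and 5 in place of 9. All genes tested were 14271, 20961, 20961 and 27355 in these settings, against 14271 in the main run. Other pathway genes tested were 40, 46, 46 and 52, against 40. The limma settings thus differ in filter and test as well as in scale. Each of these 4 settings gave 2 of the 10 genes as higher in place of 1, the added gene being Nlrc4. In the same order Vps4a turned to 0.050, 0.14, 0.15 and 0.14 (log2 fold changes). The median log2 fold change over the genes tested was higher with library totals and on log2(TPM + 1). The cause of each change was not tested further. With single libraries left out, all genes higher numbered 4468 to 4558 and lower 4223 to 4363, the 10 genes 1 higher and 5 to 6 lower, and the other pathway genes 18 to 20 higher and 8 to 9 lower. Casp1 ranged from -8.63 to -7.53 where the fetal library with counts was kept; without it the fall was at least 346-fold. Il18 ranged from -0.018 to 0.57 (log2 fold changes). Replicate differences were not correlated between the groups (-0.014). This cannot exclude that samples of the same replicate number were handled together, which the labels do not say. With the replicate block 4765 genes were higher and 4584 lower, of the 10 genes 1 and 5, and of the other pathway genes 19 and 9. The 2 libraries per group and the few counts of Casp1 in fetal organoids and of Il18 limit the precision.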

Other observations

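Several defence genes of this pathway were seen in few reads only. The interferon-induced GTPases Gbp2, Gbp3 and Gbp5 had 0 counts in both adult libraries and 3 and 9, 4 and 13, and 1 and 6 counts in the fetal ones. For each of these 3 genes fetal replicate 2 held more counts than fetal replicate 1. Nlrp9b, a sensor of viral RNA in the intestine, had 1 and 8 counts in adult and 0 in fetal libraries. Of 8 interferon response genes, 5 were tested, 4 were higher in fetal organoids and none was lower, where 33.9% of all tested genes were higher and 32.7% lower, with summed TPM of 11.7 and 14.1 in adult and 30.1 and 26.1 in fetal libraries.

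Naip3 and the pseudogene Naip3-ps1 also had fewer counts in fetal organoids. Naip3, which shares 23.2% of the 50-base windows of Naip1, had 331 and 264 counts in adult and 76 and 65 in fetal libraries. Naip3-ps1 had 70 and 54 against 22 and 25.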
